A study of Gallus gallus with 24 samples.

Results

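Chemokines, interleukins and their receptors were examined in the developing chick sinoatrial node (SAN), the tissue that paces the heartbeat, and in the neighbouring atria. The members were taken by gene symbol: every symbol that begins as a CXC, CC, XC or CX3C chemokine, a chemokine receptor or an atypical chemokine receptor, or that names an interleukin or an interleukin receptor. The pattern matched 64 symbols, and IL17RD was left out by the rule, which left 63 genes among the 12422 gene symbols of the expression table. By role they were 5 CXC chemokines, 3 CXC receptors, 6 CC, XC or CX3C chemokines, 7 CC or CX3C receptors, 2 atypical chemokine receptors, 2 ligands or binding proteins and 8 receptors of the IL1 family, 2 ligands and 7 receptors of the IL6 and IL12 families, 3 ligands and 8 receptors of the common gamma chain, IL4 and IL13 group, 4 IL10 family receptors, 4 IL17 family genes and 2 other ligands. All 63 had a mean log2 value above 0 in at least 1 group.

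Gene expression was measured by RNA sequencing of ribosomal RNA-depleted, stranded total RNA in 24 libraries, 4 for each of 6 groups. SAN tissue had been cultured for 14 hours with CN03 at 0.25 ug/ml, cultured for 14 hours with vehicle (water), or taken freshly isolated (t0), and atrial tissue had been handled in the same 3 ways. CN03 is a cell-permeable activator of the small GTPase RhoA, both cultured groups were kept in medium with serum, and all tissue came from wild-type chick embryos at Hamburger-Hamilton stage 30, embryonic day 6. Each library came from a pool of 5 tissue preparations, so that every value is an average over the cell types of those pieces of tissue.

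Chemokines are small secreted proteins that draw leukocytes and other migrating cells along gradients by way of G protein-coupled receptors, and the atypical receptors bind chemokines and clear them without that signal. Most interleukin receptors signal through Janus kinases and STAT proteins, whereas the IL1 family receptors use MYD88 and NF-kappaB. In the embryonic heart the tissue macrophages carry many of these receptors, and in the mouse CXCL12, CXCR4 and ACKR3 (listed here as CXCR7) have known roles in the growth of coronary vessels and valves.

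Values are log2 expression as deposited, compared within a gene and, apart from 1 sum over leukocyte markers, not between genes. The depth behind each value is unknown, so no counting error can be given. The standard error (SE) of a change comes from 1 estimate of that gene's spread between pools, fitted over all 6 groups together. It is therefore the same in SAN and atria and does not show which group was more widely spread. Libraries of a group correlated with r between 0.977 and 0.992 across all genes. The lowest value of the table, -5.87, is a floor, and 8 of the 1512 values of these genes lay on it. The lower tail of the values differed between groups: the 5th percentile over all genes was between -0.41 and -0.19 in CN03-treated SAN and between 0.32 and 0.62 in vehicle-treated SAN, and between -0.72 and -0.47 in CN03-treated atria and between -0.24 and -0.02 in vehicle-treated atria. The 63 genes were therefore compared again after quantile normalization, which gives every library the same distribution, and for many of them the calls that this ended are given. The genes of the marker and signalling lists were not compared again in this way. The tissue labels held in the markers: at t0 SHOX2 had a log2 mean of 7.52 in SAN and 1.29 in atria and HCN4 of 6.17 in SAN and 2.70 in atria, while NPPA was at 5.75 in SAN and 10.50 in atria and BMP10 at 2.79 in SAN and 8.24 in atria.

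Culture with CN03 changed 30 of the 63 genes in SAN and 31 in atria, where a gene counts as changed if limma gave it a Benjamini-Hochberg adjusted p under 0.05 over all genes and its log2 ratio of group means (log2FC) lay beyond 1 or -1. In SAN, 10 were higher and 20 lower than with vehicle, which is 47.6% of these genes where 27.4% of all genes passed (10.2% higher and 17.1% lower). In atria, 16 were higher and 15 lower, or 49.2% where 29.4% of all genes passed (13.8% higher and 15.6% lower). The median log2FC was -0.34 over the 63 genes and -0.06 over all genes in SAN, and 0.12 over the 63 genes and -0.01 over all genes in atria. Quantile normalization turned the balance in SAN to 19 higher and 12 lower (49.2%, where 25.6% of all genes passed). Of the 30 calls in SAN 22 were kept, and 9 genes were called as higher only then: CXCR1, IL16, IL17B, IL18R1, IL1R2, IL1RAPL2, IL1RL2, IL31RA and IL34. In atria it gave 16 higher and 11 lower (42.9%, where 27.0% of all genes passed), with 26 of the 31 calls kept and IL17B added. No call turned to the opposite direction. With a pseudocount of 1 added to the linear values, which shrinks the changes of low genes, 17 genes passed in SAN (6 higher and 11 lower, 27.0% where 21.8% of all genes passed) and 22 in atria (12 higher and 10 lower, 34.9% where 23.6% of all genes passed). Among the calls that fell under a limit in this way were those of CCL17, CCR7, CX3CR1, CXCL13L2, IL2, IL4R, IL7R and IL8L1 in SAN, of CCR2, IL1R2, IL1RAPL1, IL2RB and IL31RA in atria, and of IL2RA, IL9, IL12B and IL12RB2 in both tissues. Without the fold limit 42 genes passed in each tissue, where 71.2% of all genes passed in SAN and 72.5% in atria.

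In both tissues 9 genes were higher with CN03: the ligands IL6, IL8L1, IL18 and IL12B, the receptor chains IL1RAP, IL4R, IL13RA1 and IL12RB2, and the scavenger ACKR2. Another 12 were lower in both: the chemokines CXCL14, CCL17, CCL21, CCL26 and XCL1, the receptors CXCR7, CCR2, CCR7, IL2RA and IL2RG, and the ligands IL9 and IL15. None of the 63 passed in opposite directions. The share of all genes that passed in both tissues was not counted, so these counts have no background beside them. Culture itself, vehicle against t0, raised 17 and lowered 3 of the 63 genes in SAN (31.7%, where 13.6% of all genes passed, 8.01% higher and 5.59% lower), and raised 22 and lowered 5 in atria (42.9%, where 19.2% of all genes passed, 10.1% higher and 9.02% lower). Over the 63 genes the median log2FC with culture was 0.38 in SAN and 0.45 in atria, and over all genes it was -0.02 in SAN and -0.0025 in atria. Under quantile normalization the SAN count was 15 higher and 7 lower (34.9%, where 15.8% of all genes passed), with 17 of the 20 calls kept and 5 added, IL10RB as higher and CXCL13L2, IL1RAPL1 and IL1RAPL2 among those lower. The atrial count was 19 higher and 5 lower (38.1%, where 18.7% of all genes passed), with none added. Without the fold limit 33 genes passed in SAN, where 51.4% of all genes did, and 40 in atria, where 59.0% did. Some markers of other cells passed too, though not in every list and tissue. With CN03, of 6 epicardial markers 3 were lower in SAN, and 5 were lower and 1 higher in atria, of 8 fibroblast markers 5 were lower in SAN and 4 in atria, of 5 erythroid markers none passed in SAN and 4 were lower in atria, and of 10 endothelial markers 1 was higher in SAN and 5 in atria. With culture in atria all 5 erythroid and 7 of the 10 endothelial markers were lower. Of 8 cardiomyocyte markers 3 were lower with CN03 in each tissue, as was 1 of 4 thrombocyte and 1 of 4 neural markers. Over all genes 27.4% passed with CN03 in SAN (17.1% lower and 10.2% higher), 29.4% with CN03 in atria (15.6% lower and 13.8% higher) and 19.2% with culture in atria (9.02% lower). The endothelial count with CN03 in SAN, 10%, was near the share of all genes that were higher. The part of the listed cells in the changes of the 63 genes was not tested.

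**Figure D1:**
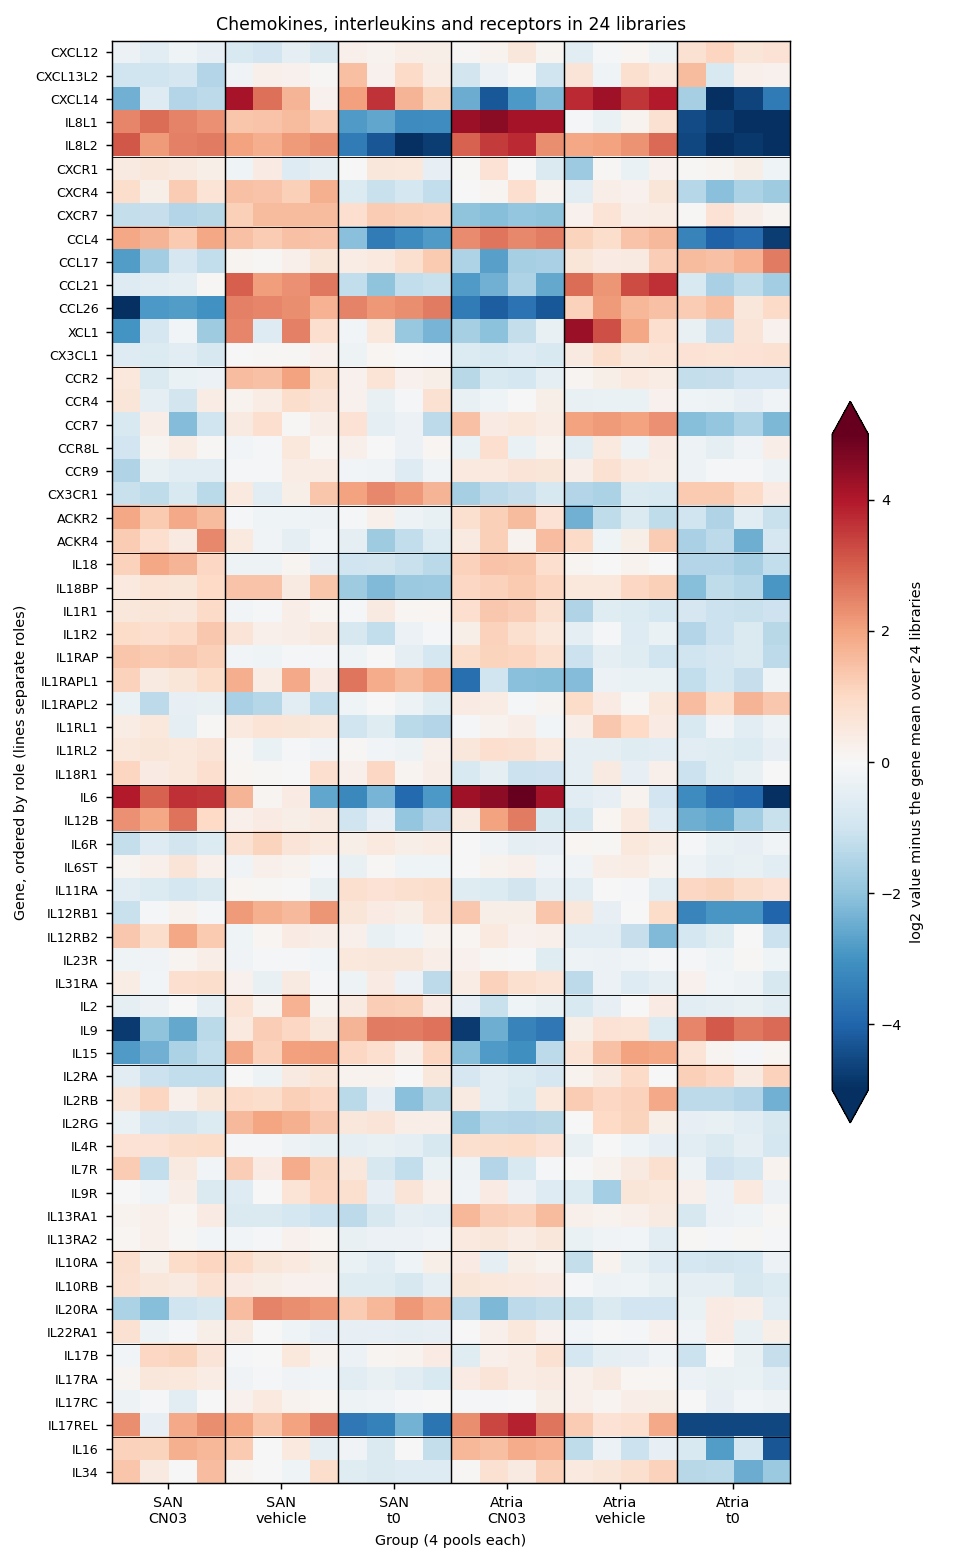
Each row is 1 of 62 of the 63 genes, ordered by role with lines between roles, and each column 1 of the 24 libraries, grouped as SAN with CN03, vehicle and t0, then atria with CN03, vehicle and t0. Colour is the log2 value minus that gene's mean over the 24 libraries, cut at 5 in either direction. IL8L1, IL8L2, CCL4 and IL6 are blue at t0 and red with CN03 in both tissues, while CXCL14, CCL26, IL9 and IL15 are blue in the CN03 pools.

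The CXC chemokines held the largest log2FC of the 63 genes with CN03 in atria (CXCL14) and with culture in both tissues (IL8L2). IL8L1 and IL8L2 are the chicken counterparts of the neutrophil attractant CXCL8 and lie next to each other on chromosome 4 of GRCg7b, at chr4:50430778-50434071 and chr4:50443423-50446598, so that reads of similar sequence could be shared between them. In SAN the log2 values of IL8L1 were 3.28, 3.62, 3.32 and 3.13 with CN03, 2.22, 2.26, 2.42 and 2.08 with vehicle, and -1.99, -1.76, -2.29 and -2.27 at t0. In atria they were 5.11, 5.36, 4.99 and 5.0 with CN03, 0.77, 0.51, 1.03 and 1.61 with vehicle, and -3.61, -3.90, -4.76 and -5.87 at t0, with the last pool on the floor. The groups did not overlap in either tissue. IL8L1 was higher with CN03 than with vehicle by a log2FC of 1.09 ± 0.33 (SE, adjusted p = 0.0049) in SAN and 4.13 ± 0.33 (SE, adjusted p = 7.6e-11) in atria, and the difference between these responses, SAN minus atria, was -3.04 ± 0.46 (SE, adjusted p = 4.2e-05). The SAN call rested on the fold limit, with a log2FC of 0.997 without CN03 pool 2. Vehicle culture alone had raised it by 4.32 in SAN and 5.51 in atria over t0. With a pseudocount of 1 these rises were 2.21 in SAN and 1.51 in atria, so their order depends on the low values at t0.

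IL8L2 changed with culture and much less with CN03. Its SAN values were 6.19, 5.21, 5.59 and 5.67 with CN03, 5.10, 4.90, 5.20 and 5.38 with vehicle, and -0.44, -1.20, -2.35 and -1.67 at t0. Its atrial values were 6.01, 6.58, 6.79 and 5.39 with CN03, 5.02, 5.07, 5.33 and 5.90 with vehicle, and -1.49, -3.73, -1.76 and -3.0 at t0. Cultured and fresh pools stood far apart in both tissues, by a log2FC with vehicle of 6.56 ± 0.41 (SE, adjusted p = 9.7e-12) in SAN and 7.83 ± 0.41 (SE, adjusted p = 2.7e-13) in atria. With CN03 the pools overlapped those with vehicle, and the log2FC of 0.52 ± 0.41 in SAN (adjusted p = 0.26) and 0.86 ± 0.41 in atria (adjusted p = 0.063) did not pass. The atrial log2FC was 1.13 without CN03 pool 4 and 1.05 without vehicle pool 4, and passed in each case.

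CXCL14, a chemokine of epithelia and fibroblasts known to attract monocytes, ran the other way. In SAN CXCL14 was at -1.87, -0.12, -0.93 and -0.79 with CN03, 4.64, 3.26, 2.21 and 0.74 with vehicle, and 2.58, 4.14, 2.22 and 1.64 at t0. In atria CXCL14 was at -1.97, -3.71, -2.36 and -1.67 with CN03, 4.26, 4.78, 4.08 and 4.49 with vehicle, and -1.12, -4.88, -4.13 and -3.02 at t0. Every CN03 pool lay below every vehicle pool in both tissues, and the vehicle pools of SAN were widely spread. The log2FC with CN03 was -3.64 ± 0.73 (SE, adjusted p = 0.00011) in SAN and -6.83 ± 0.73 (SE, adjusted p = 1.3e-08) in atria. Culture with vehicle left the SAN at a log2FC of 0.07 ± 0.73 (adjusted p = 0.94), but raised the atria by 7.69 ± 0.73 (SE, adjusted p = 5.1e-09), a difference between tissues of -7.62 ± 1.03 (SE, adjusted p = 2.1e-05). At t0 the SAN held more CXCL14 than the atria by 5.93 ± 0.73 (SE, adjusted p = 8.1e-07). The smaller response to CN03 in SAN (difference 3.19) lost its call without CN03 pool 2 of the atria (2.76) or vehicle pool 4 of the SAN (2.53).

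CXCL12, the ligand of CXCR4 and CXCR7, had group means between 6.14 and 7.68. Culture lowered it in SAN, to a log2FC of -1.01 ± 0.13 (SE, adjusted p = 1.1e-06), a call lost without pool 3 or 4 at t0 (-0.98 and -0.99) or vehicle pool 2 or 4 (-0.93 and -0.99), and the atrial log2FC of -0.99 came just short of the fold limit. With CN03 it was at 0.36 in SAN and 0.43 in atria, below the fold limit in both. CXCL13L2, named for the B cell attractant CXCL13, had group means between -1.57 and 0.26 and passed with CN03 in SAN at -1.16 but was at -0.01 after quantile normalization.

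The receptors of CXCL12 differed from each other. CXCR7, which binds CXCL12 and clears it, had SAN values of 5.74, 5.79, 5.48 and 5.56 with CN03, 8.16, 8.53, 8.54 and 8.53 with vehicle, and 7.79, 8.21, 8.13 and 8.10 at t0. Its atrial values were 4.95, 4.81, 5.02 and 4.93 with CN03, 7.16, 7.65, 7.28 and 7.32 with vehicle, and 7.01, 7.69, 7.28 and 7.08 at t0. CN03 pools lay more than 1 log2 unit below all others in both tissues, while vehicle against t0 was at a log2FC of only 0.38 in SAN and 0.09 in atria. Against vehicle CXCR7 had a log2FC with CN03 of -2.80 ± 0.13 (SE, adjusted p = 1.3e-14) in SAN and -2.43 ± 0.13 (SE, adjusted p = 7.0e-14) in atria. CXCR4, which turns the CXCL12 signal into cell migration, was instead a gene of culture. In SAN CXCR4 was at 2.28, 1.69, 2.66 and 2.08 with CN03, 2.87, 2.81, 2.60 and 3.17 with vehicle, and 0.72, 0.27, 0.50 and 0.15 at t0, and in atria at 1.40, 1.51, 2.24 and 1.57 with CN03, 0.85, 1.73, 1.59 and 2.01 with vehicle, and -0.05, -0.70, -0.20 and -0.39 at t0. It was higher with vehicle than at t0 by 2.45 ± 0.25 (SE, adjusted p = 2.2e-08) in SAN and 1.88 ± 0.25 (SE, adjusted p = 7.3e-07) in atria. With CN03 its log2FC was -0.68 in SAN, under the fold limit, and 0.13 in atria, where the pools overlapped. CXCR1, a CXCL8 receptor, had group means between -0.10 and 0.80 and passed in no comparison.

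**Figure D2:**
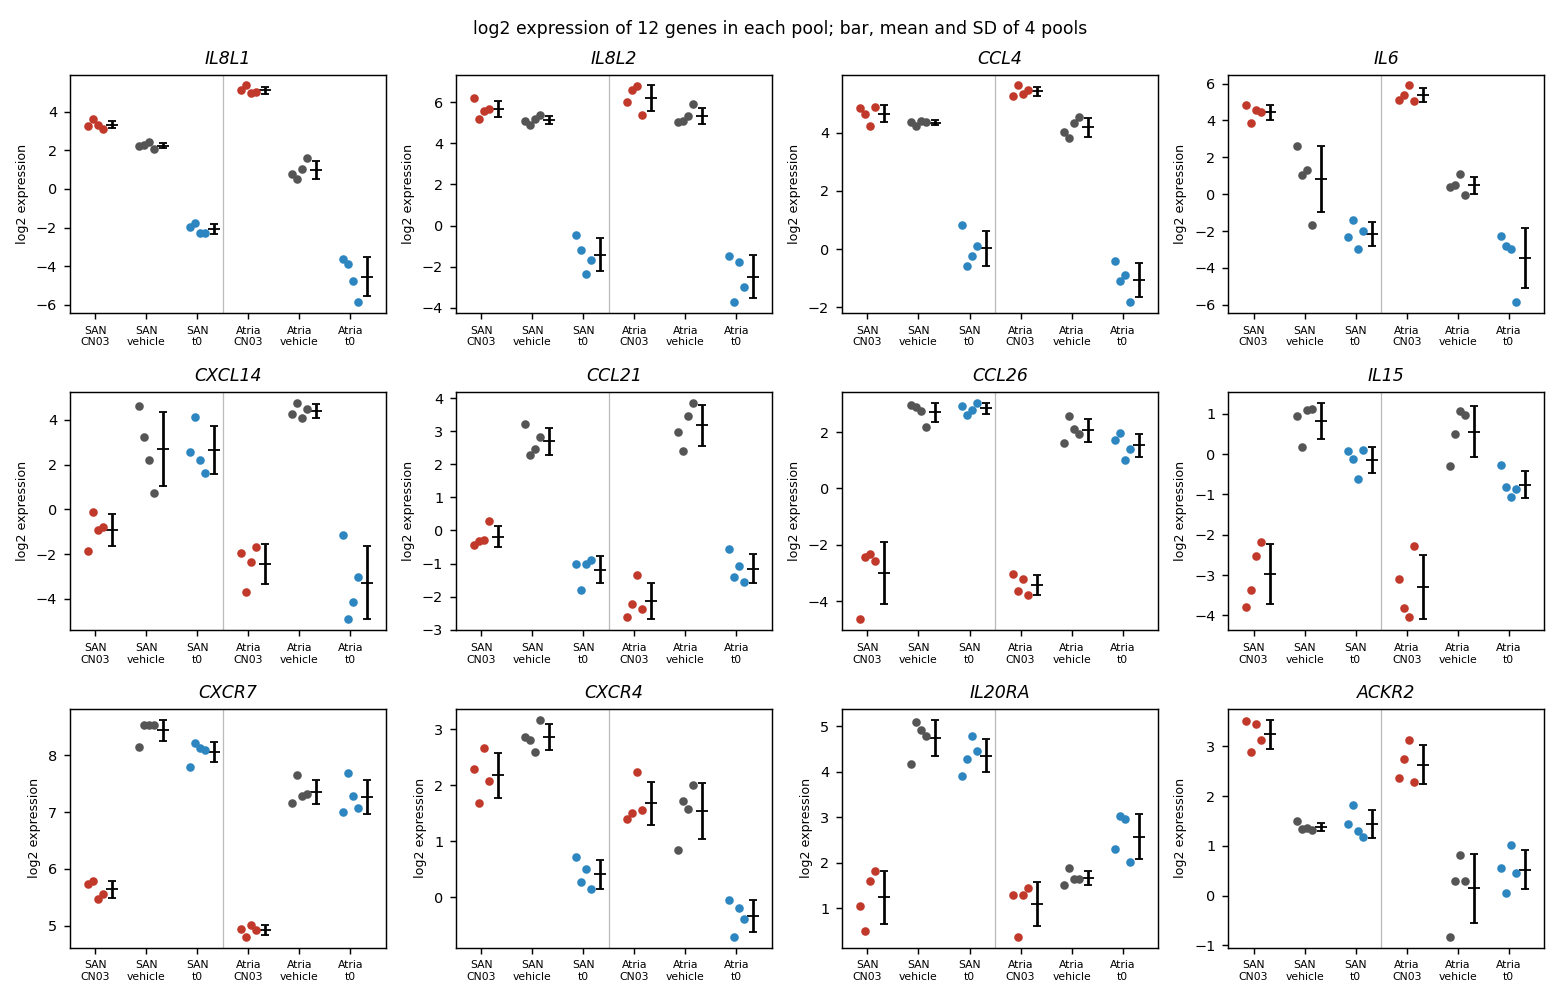
Log2 expression of 12 genes, 1 panel each, with 1 point per pool and a bar for the mean and SD of the 4 pools; groups run from SAN with CN03, vehicle and t0 to atria with CN03, vehicle and t0. IL6 and IL8L1 step up from t0 to vehicle to CN03 in atria, CCL26 and IL15 drop with CN03 alone, and IL20RA drops with CN03 in SAN, to between 0.50 and 1.81.

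Among the CC and XC chemokines, CCL17, CCL21, CCL26 and XCL1 were lower with CN03 in both tissues and CCL4 was higher in atria. CCL4, a macrophage-made attractant of monocytes and T cells, had SAN values of 4.84, 4.63, 4.23 and 4.87 with CN03, 4.37, 4.21, 4.41 and 4.36 with vehicle, and 0.83, -0.58, -0.23 and 0.09 at t0. Its atrial values were 5.27, 5.62, 5.32 and 5.48 with CN03, 4.02, 3.82, 4.33 and 4.53 with vehicle, and -0.41, -1.11, -0.88 and -1.83 at t0. Culture raised it over t0 in every pool, by 4.31 ± 0.26 (SE, adjusted p = 4.6e-12) in SAN and 5.23 ± 0.26 (SE, adjusted p = 9.6e-14) in atria. With CN03 the atria were higher still, by 1.24 ± 0.26 (SE, adjusted p = 0.00015), whereas the SAN pools overlapped (log2FC 0.31 ± 0.26, adjusted p = 0.29). The difference between the tissues, -0.94, did not pass (adjusted p = 0.059). It did with the replicate number added to the fit as a block, which moved the share called over all genes from 27.1% to 32.1%. These numbers are not stated to pair the pools.

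CCL26 bears the name of human eotaxin-3. In SAN CCL26 was at -4.65, -2.44, -2.32 and -2.57 with CN03, 2.97, 2.88, 2.77 and 2.19 with vehicle, and 2.94, 2.62, 2.77 and 3.04 at t0. In atria CCL26 was at -3.03, -3.66, -3.22 and -3.77 with CN03, 1.62, 2.59, 2.11 and 1.92 with vehicle, and 1.71, 1.97, 1.03 and 1.41 at t0. Vehicle and t0 pools shared 1 range in SAN, and in both tissues all CN03 pools lay below 0 and all others above it. Against vehicle CCL26 had a log2FC of -5.70 ± 0.37 (SE, adjusted p = 4.2e-12) in SAN and -5.48 ± 0.37 (SE, adjusted p = 5.1e-12) in atria. On the deposited values this was the largest fall of the 63 genes in SAN. It depends on the low CN03 values, and with a pseudocount of 1 was -2.72 in SAN and -2.25 in atria. In SAN IL20RA (-3.03 or below under every alternative) and CXCR7 (-2.74 or below) then fell further.

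CCL21, the ligand of CCR7 that guides lymphocytes and dendritic cells in mammals, was raised by vehicle culture and was lower with CN03 than with vehicle. In SAN its CN03 pools still lay above those at t0. In SAN CCL21 was at -0.43, -0.33, -0.28 and 0.28 with CN03, 3.21, 2.30, 2.47 and 2.85 with vehicle, and -1.03, -1.80, -1.02 and -0.90 at t0. In atria CCL21 was at -2.63, -2.21, -1.35 and -2.37 with CN03, 2.99, 2.42, 3.46 and 3.87 with vehicle, and -0.57, -1.42, -1.08 and -1.55 at t0. The vehicle pools stood above all others in each tissue. Against t0 they were higher by 3.89 ± 0.33 (SE, adjusted p = 1.5e-09) in SAN and 4.34 ± 0.33 (SE, adjusted p = 1.3e-10) in atria. With CN03 the log2FC against vehicle was -2.90 ± 0.33 (SE, adjusted p = 4.3e-08) in SAN and -5.33 ± 0.33 (SE, adjusted p = 9.2e-13) in atria, a larger fall in atria by 2.43 ± 0.47 (SE, adjusted p = 0.00045).

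XCL1, lymphotactin, varied widely between pools: in SAN it was at -3.81, -1.66, -0.95 and -2.60 with CN03, 1.61, -1.48, 1.69 and 0.01 with vehicle, and -0.96, -0.28, -2.71 and -3.15 at t0, and in atria at -2.48, -2.86, -2.02 and -1.19 with CN03, 3.50, 2.40, 1.12 and 0.02 with vehicle, and -1.19, -1.96, -0.17 and -0.60 at t0. It was lower with CN03, at a log2FC of -2.71 ± 0.79 (SE, adjusted p = 0.0039) in SAN, where the call was lost after quantile normalization (-1.64), and -3.90 ± 0.79 (SE, adjusted p = 0.00012) in atria. Its rise with culture passed in both tissues (2.23 in SAN and 2.74 in atria), but in SAN was lost without any 1 of 4 pools, vehicle pool 1 or 3 or pool 3 or 4 at t0 (between 1.78 and 1.92). Vehicle pool 2 of the SAN lay among the CN03 pools, and in atria the vehicle pools stood above those with CN03, whose range held 1 of the pools at t0. CCL17, a ligand of CCR4 made by dendritic cells and macrophages, was at -2.60, -1.54, -0.62 and -1.04 with CN03, 0.33, 0.26, 0.47 and 0.80 with vehicle, and 0.57, 0.67, 0.98 and 1.51 at t0 in SAN. In atria CCL17 was at -1.34, -2.51, -1.45 and -1.41 with CN03, 0.79, 0.61, 0.66 and 1.44 with vehicle, and 1.78, 1.67, 1.94 and 2.81 at t0. No CN03 pool reached any pool of the other groups in either tissue. With CN03 its log2FC was -1.92 ± 0.36 (SE, adjusted p = 5.7e-05) in SAN and -2.55 ± 0.36 (SE, adjusted p = 1.2e-06) in atria, and culture had already lowered it in atria, at -1.18 ± 0.36 (SE, adjusted p = 0.0077), or -0.92 and under the fold limit without pool 4 at t0.

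CX3CL1, the membrane-bound fractalkine of endothelium and neurons, had group means between 4.24 and 5.67. It was lower with CN03 in atria, at a log2FC of -1.36 ± 0.09 (SE, adjusted p = 2.7e-12), and was at -0.76 in SAN, below the fold limit, and this difference between tissues passed (0.60 ± 0.13 SE, adjusted p = 0.0010).

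Receptors of the CC and CX3C class were lower with CN03 for 4 of 7 genes in SAN and 2 of 7 in atria, and none was higher. These are 57.1% in SAN and 28.6% in atria, where 17.1% and 15.6% of all genes were lower. With 7 genes such shares are coarse. CCR7, the CCL21 receptor, was at 1.09, 2.21, -0.28 and 0.85 with CN03, 2.33, 2.70, 1.92 and 2.18 with vehicle, and 2.58, 1.36, 1.58 and 0.58 at t0 in SAN. In atria CCR7 was at 3.33, 2.29, 2.38 and 2.25 with CN03, 3.88, 3.98, 3.86 and 4.15 with vehicle, and -0.27, -0.05, 0.31 and -0.39 at t0. Culture raised it in atria by 4.07 ± 0.39 (SE, adjusted p = 5.9e-09), where fresh and cultured pools were far apart, and by only 0.76 in SAN (adjusted p = 0.11), a difference of -3.31 ± 0.55 (SE, adjusted p = 0.00025). With CN03 it was lower, at a log2FC of -1.32 ± 0.39 (SE, adjusted p = 0.0045) in SAN and -1.41 ± 0.39 (SE, adjusted p = 0.0026) in atria. The pools overlapped in SAN, where the call was lost after quantile normalization (-0.80) or without CN03 pool 3 (-0.90), and did not overlap in atria.

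CCR2 is a receptor of inflammatory monocytes, and CX3CR1 is the fractalkine receptor of tissue macrophages. In GRCg7b the CCR2 model overlaps another gene model, so its reads may be divided in an unknown way. The SAN values of CCR2 were 1.84, 0.58, 1.0 and 1.03 with CN03 and 2.86, 2.79, 3.34 and 2.20 with vehicle, and the atrial values -0.06, 0.55, 0.43 and 0.86 with CN03 and 1.44, 1.63, 1.80 and 1.69 with vehicle. CCR2 was lower with CN03, at a log2FC of -1.68 ± 0.24 (SE, adjusted p = 1.8e-06) in SAN and -1.20 ± 0.24 (SE, adjusted p = 0.00014) in atria, and the atrial call was lost after quantile normalization (-0.79). Its rise with culture passed in both tissues (1.13 in SAN and 1.39 in atria), and in SAN was 0.95 without vehicle pool 3. CX3CR1 was at -1.39, -1.53, -1.01 and -1.62 with CN03 and 0.23, -0.77, 0.03 and 1.13 with vehicle in SAN, where the groups did not overlap, and was lower at -1.55 ± 0.33 (SE, adjusted p = 0.00026), but did not pass after quantile normalization (-0.59). In atria its log2FC with CN03 was -0.11 and did not pass, and culture had lowered it there, to a log2FC of -2.13. It was also lower with culture in SAN, at -1.66 ± 0.33 (SE, adjusted p = 0.00025), so that the pools at t0 were its highest in both tissues.

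Markers of macrophages and other leukocytes were lower with CN03 as well. Of 16 listed markers 15 were in the table, and with CN03 14 of the 15 were lower in SAN and 11 in atria, none higher. These are 93.3% in SAN and 73.3% in atria, where 17.1% and 15.6% of all genes were lower. Their summed linear values were between 67.0 and 88.0 in CN03-treated SAN and between 289 and 340 in vehicle-treated SAN, and between 68.8 and 79.6 in CN03-treated atria and between 129 and 209 in vehicle-treated atria. At t0 the sums were between 132 and 174 in SAN and between 71.8 and 100 in atria. Such a sum is weighted to highly expressed genes, and MRC1 was the highest of the 15 with CN03. Its log2 mean in SAN was 5.67 with CN03, 6.99 with vehicle and 4.44 at t0. In atria the MRC1 mean was 5.68 with CN03, 6.12 with vehicle and 3.38 at t0. The sums with CN03 and at t0 therefore do not compare the other markers. The complement gene C1QA had a log2FC with CN03 of -7.34 in SAN and -5.64 in atria, C1QC of -8.25 in SAN and -6.15 in atria, and MARCO of -5.15 in SAN and -6.57 in atria, while the pan-leukocyte gene PTPRC was at -0.07 in SAN and 0.25 in atria and did not pass. The CN03 means of C1QA were -4.20 in SAN and -4.24 in atria, and those of C1QC -5.01 in SAN and -4.92 in atria. These lie near the floor of the table, so that the folds of C1QA and C1QC depend on it. With CN03, 7 of the 15 had a mean log2 value below 0 in SAN and 8 in atria, against none with vehicle. In bulk tissue, fewer cells of a type and less RNA per cell cannot be told apart, and the part of these markers in the fall of the chemokine and interleukin receptors was not tested.

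**Figure D3:**
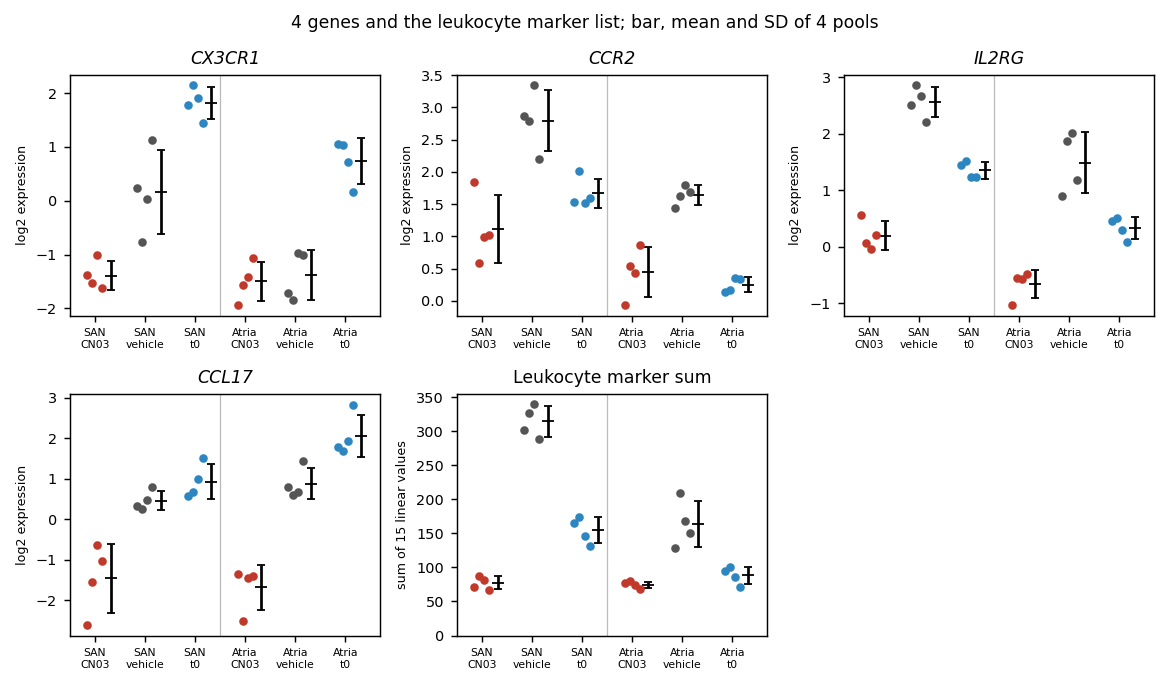
Log2 expression of CX3CR1, CCR2, IL2RG and CCL17 in each pool, and the sum of the linear values of 15 macrophage and leukocyte markers (last panel, axis from 0); points are pools and bars the mean and SD of 4. The marker sum is between 289 and 340 in vehicle-treated SAN and at most 88.0 in either tissue with CN03, and IL2RG and CCR2 are also highest with vehicle in both tissues.

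CCR9, a receptor of thymocytes and gut lymphocytes, had means between 1.46 and 2.76 and a log2FC with CN03 of -0.88 in SAN and 0.06 in atria, a difference that passed (-0.94 ± 0.27 SE, adjusted p = 0.013) but not after quantile normalization. CCR4, a receptor of CCL17 (means between 0.16 and 0.93) and CCR8L (means between 0.02 and 0.25) passed in no comparison.

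ACKR2 and ACKR4, the genes filed here as atypical receptors, were higher with CN03 in SAN. CXCR7 (ACKR3), also an atypical receptor but counted above with the CXC receptors, was lower in both tissues. ACKR2, which clears inflammatory CC chemokines, was at 3.51, 2.89, 3.46 and 3.13 with CN03, 1.50, 1.35, 1.35 and 1.32 with vehicle, and 1.44, 1.83, 1.29 and 1.18 at t0 in SAN. In atria ACKR2 was at 2.37, 2.76, 3.12 and 2.28 with CN03, -0.83, 0.29, 0.83 and 0.29 with vehicle, and 0.56, 0.06, 1.02 and 0.45 at t0. CN03 pools lay above every other pool in each tissue, and vehicle pools overlapped those at t0. Against vehicle ACKR2 had a log2FC with CN03 of 1.87 ± 0.27 (SE, adjusted p = 1.8e-06) in SAN and 2.48 ± 0.27 (SE, adjusted p = 1.9e-08) in atria. ACKR4, which clears CCL19, CCL21 and CCL25 in mammals, was at 3.79, 3.39, 2.96 and 4.94 with CN03, 3.02, 2.34, 2.03 and 2.40 with vehicle, and 2.04, 0.76, 1.31 and 1.86 at t0 in SAN. In atria ACKR4 was at 3.0, 3.74, 2.72 and 4.07 with CN03, 3.48, 2.31, 2.82 and 3.82 with vehicle, and 0.90, 1.23, 0.07 and 1.68 at t0. It passed with CN03 in SAN (1.32 ± 0.41 SE, adjusted p = 0.0067), with 1 pool at 2.96 inside the range of vehicle and a log2FC of 0.93 without CN03 pool 4, and with culture in atria (2.13 ± 0.41 SE, adjusted p = 0.00012). In atria CN03 and vehicle pools shared a range (log2FC 0.27 ± 0.41).

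**Figure D4:**
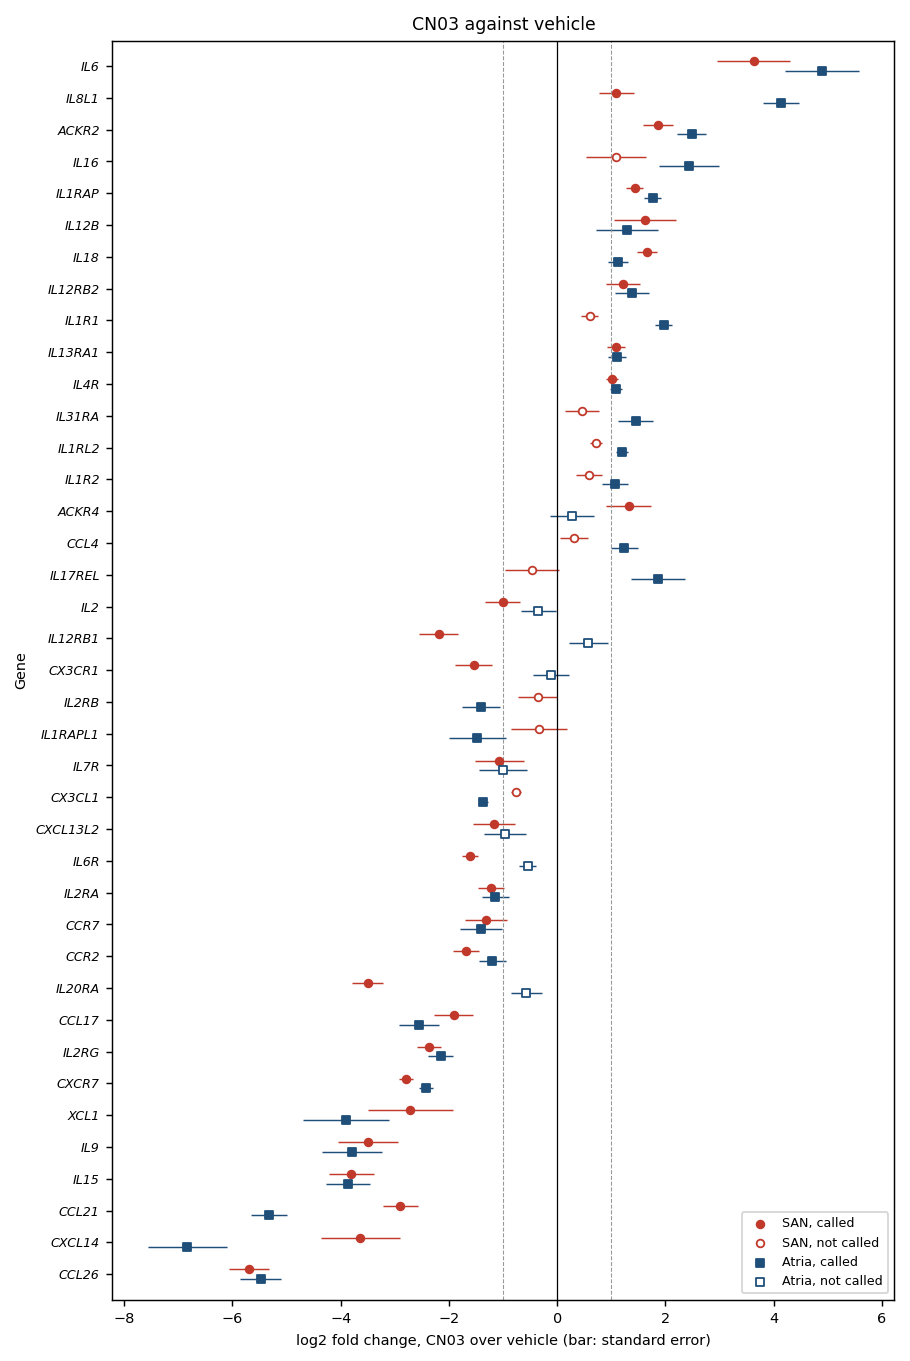
The log2 fold change of CN03 over vehicle for 39 of the genes that passed in at least 1 tissue, with circles for SAN, squares for atria, filled where the gene passed, and bars for the standard error; dashed lines mark the fold limit of 1. IL6 tops the plot at 3.63 in SAN and 4.90 in atria and CCL26 ends it at -5.70 and -5.48.

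In the IL1 family, the ligand IL18 and several receptor chains were higher with CN03. IL18, which drives interferon gamma in lymphocytes, was at 3.70, 4.49, 4.25 and 3.58 with CN03 and 2.28, 2.28, 2.69 and 2.13 with vehicle in SAN and at 3.72, 3.99, 3.94 and 3.38 with CN03 and 2.68, 2.54, 2.73 and 2.58 with vehicle in atria, with no overlap. It was higher by 1.66 ± 0.18 (SE, adjusted p = 2.4e-08) in SAN and 1.12 ± 0.18 (SE, adjusted p = 7.4e-06) in atria, on top of a rise with culture of 0.90 in SAN, under the fold limit, and 1.54 in atria. IL18BP, the soluble decoy of IL18, rose with vehicle culture over t0, and its change from vehicle to CN03 did not pass. In SAN IL18BP was at 1.08, 1.30, 1.20 and 1.62 with CN03, 2.05, 2.05, 1.04 and 1.99 with vehicle, and -1.15, -1.59, -1.23 and -1.20 at t0. In atria IL18BP was at 1.65, 1.77, 1.91 and 1.67 with CN03, 1.15, 1.14, 1.66 and 1.79 with vehicle, and -1.50, -0.65, -0.83 and -2.29 at t0. The rise over t0 was 3.08 ± 0.29 (SE, adjusted p = 8.1e-09) in SAN and 2.76 ± 0.29 (SE, adjusted p = 2.5e-08) in atria, while its log2FC with CN03 of -0.48 in SAN and 0.31 in atria did not pass and in SAN turned to 0.18 after quantile normalization.

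IL1RAP, the accessory chain shared by receptors of IL1, IL33 and IL36, was at 5.71, 5.60, 5.67 and 5.50 with CN03 and 4.19, 4.10, 4.22 and 4.24 with vehicle in SAN and at 5.19, 5.44, 5.40 and 5.10 with CN03 and 3.25, 3.81, 3.70 and 3.32 with vehicle in atria. It was higher in all CN03 pools, by 1.43 ± 0.15 (SE, adjusted p = 1.6e-08) in SAN and 1.76 ± 0.15 (SE, adjusted p = 4.0e-10) in atria. IL1R1, the signalling IL1 receptor, was at 6.75, 6.79, 6.75 and 7.14 with CN03 and 6.04, 6.14, 6.54 and 6.30 with vehicle in SAN and at 7.04, 7.54, 7.43 and 7.01 with CN03 and 4.71, 5.61, 5.51 and 5.33 with vehicle in atria. Its rise with CN03 was 1.97 ± 0.16 (SE, adjusted p = 1.5e-10) in atria but 0.60 in SAN, under the fold limit, and the difference of -1.37 ± 0.23 (SE, adjusted p = 0.00012) passed. IL1RL2, the IL36 receptor, followed it at a smaller size, with 1.20 in atria, 0.71 in SAN and a difference of -0.48 ± 0.16 (SE, adjusted p = 0.030) that was lost after quantile normalization. The decoy receptor IL1R2 passed with CN03 in atria (1.07), though not without CN03 pool 2 (0.92) or vehicle pool 3 (0.99). With culture it passed in SAN (1.02), though not after quantile normalization (0.91) or without pool 1 or 2 at t0 or vehicle pool 1 (0.96, 0.82 and 0.95).

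IL1RL1, the IL33 receptor, was higher after vehicle culture by 1.68 ± 0.22 (SE, adjusted p = 1.1e-06) in SAN and 1.21 ± 0.22 (SE, adjusted p = 4.9e-05) in atria, and its log2FC with CN03 was -0.43 in SAN and -0.70 in atria, under the fold limit. IL18R1, the ligand-binding chain for IL18, did not pass with CN03 in either tissue (0.44 in SAN and -0.79 in atria), yet its responses differed between the tissues by 1.23 ± 0.37 (SE, adjusted p = 0.016). IL1RAPL1 and IL1RAPL2 are IL1 receptor relatives of the nervous system, known as synaptic adhesion proteins. IL1RAPL1 was higher in SAN than in atria, with SAN values of -0.25, -0.97, -0.80 and -0.51 with CN03, 0.41, -1.04, 0.46 and -1.01 with vehicle, and 1.28, 0.45, 0.16 and 0.45 at t0. Its atrial values were -5.18, -2.43, -3.50 and -3.55 with CN03, -3.60, -1.71, -1.73 and -1.73 with vehicle, and -2.66, -2.29, -2.58 and -1.65 at t0. No atrial pool at t0 reached a SAN pool at t0 (log2FC 2.88 ± 0.52 SE, adjusted p = 0.00012). In atria its log2FC with CN03 of -1.47 ± 0.52 (SE, adjusted p = 0.015) was -0.97 and not past the threshold without CN03 pool 1, and was lost after quantile normalization. IL1RAPL2 ran the other way, lower in SAN than in atria at t0, at a log2FC of -1.63 ± 0.26 (SE, adjusted p = 2.5e-05).

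IL6, a ligand of acute inflammation that signals through gp130 (IL6ST), was the member that rose most with CN03. In SAN IL6 was at 4.86, 3.86, 4.58 and 4.47 with CN03, 2.59, 1.06, 1.31 and -1.70 with vehicle, and -2.32, -1.43, -2.97 and -1.98 at t0. In atria IL6 was at 5.13, 5.37, 5.90 and 5.07 with CN03, 0.39, 0.49, 1.09 and -0.07 with vehicle, and -2.25, -2.82, -2.99 and -5.87 at t0, with the last pool on the floor. The CN03 pools stood above all others in both tissues, the vehicle pools of SAN were spread over more than 4 log2 units, and in SAN 1 of them lay within the range at t0. CN03 raised IL6 by 3.63 ± 0.68 (SE, adjusted p = 4.8e-05) in SAN and 4.90 ± 0.68 (SE, adjusted p = 7.8e-07) in atria, and vehicle culture had raised it over t0 by 2.99 ± 0.68 (SE, adjusted p = 0.00080) in SAN and 3.96 ± 0.68 (SE, adjusted p = 2.7e-05) in atria. With a pseudocount of 1 the rises with culture were 1.35 in SAN and 1.11 in atria, so their order depends on the low values at t0. The responses of IL6 to CN03 did not differ between tissues by the test (-1.27 ± 0.96, adjusted p = 0.35).

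Its receptor chains did not rise with it. IL6R, the ligand-binding chain, was at 1.90, 2.47, 2.18 and 2.42 with CN03 and 3.86, 4.20, 3.76 and 3.61 with vehicle in SAN and at 3.07, 2.94, 2.61 and 2.68 with CN03 and 3.21, 3.16, 3.63 and 3.49 with vehicle in atria. It was lower with CN03 in SAN, at a log2FC of -1.61 ± 0.15 (SE, adjusted p = 1.5e-09), and was at -0.55 in atria, under the fold limit, and the difference of -1.07 ± 0.21 (SE, adjusted p = 0.00061) passed. IL6ST had means between 6.36 and 7.09 and log2FC values with CN03 of 0.28 in SAN and -0.13 in atria, neither past the threshold. IL11RA, the IL11 receptor, had means between 3.24 and 4.90 and was lower with culture in atria, at a log2FC of -1.22 ± 0.13 (SE, adjusted p = 4.0e-08). IL31RA, whose partner is the oncostatin M receptor OSMR, was higher with CN03 in atria by 1.45 ± 0.32 (SE, adjusted p = 0.00031) and at 0.46 in SAN.

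In the IL12 group the ligand IL12B and the receptor chain IL12RB2 were higher with CN03 in both tissues. IL12B, the p40 subunit of IL12 and IL23, had group means between -3.58 and 0.37. It was higher with CN03 by 1.63 ± 0.58 (SE, adjusted p = 0.015) in SAN and 1.29 ± 0.58 (SE, adjusted p = 0.047) in atria. The SAN call was lost without CN03 pool 3 (1.38), and the atrial call without CN03 pool 2 or 3 (0.98 and 0.78) or vehicle pool 1, 2 or 4 (1.08, 1.40 and 1.16). Culture also raised it, by 1.55 in SAN and 1.74 in atria, but by 0.25 in SAN and 0.66 in atria after quantile normalization, where neither passed. The SAN call with culture was lost without pool 3 or 4 at t0 (1.30 and 1.46) or vehicle pool 2 or 4 (1.53 and 1.51). IL12RB2, a chain of the IL12 receptor, was higher with CN03 by 1.22 ± 0.32 (SE, adjusted p = 0.0017) in SAN and 1.38 ± 0.32 (SE, adjusted p = 0.00050) in atria. With a pseudocount of 1 these changes with CN03 fell under the fold limit, at 0.73 in SAN and 0.52 in atria for IL12B and 0.83 in SAN and 0.64 in atria for IL12RB2. IL23R, its neighbour on chromosome 8, had means between 1.54 and 2.26 and did not pass.

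IL12RB1, the chain shared by the receptors of IL12 and IL23, had the largest difference in CN03 response between tissues among the IL6 and IL12 family genes. In SAN IL12RB1 was at -1.92, -0.87, -0.63 and -0.85 with CN03, 1.31, 0.97, 0.80 and 1.42 with vehicle, and -0.19, -0.40, -0.50 and -0.05 at t0. In atria IL12RB1 was at 0.53, -0.50, -0.52 and 0.59 with CN03, -0.26, -1.21, -0.83 and 0.09 with vehicle, and -4.12, -3.73, -3.70 and -4.76 at t0. CN03 pools lay below vehicle pools in SAN and overlapped them in atria. The log2FC with CN03 was -2.19 ± 0.36 (SE, adjusted p = 9.1e-06) in SAN and 0.58 ± 0.36 in atria (adjusted p = 0.15), a difference of -2.77 ± 0.51 (SE, adjusted p = 0.00029). At t0 it was higher in SAN than in atria by 3.79 ± 0.36 (SE, adjusted p = 1.5e-08), and culture raised the atria by 3.53 and the SAN by 1.41. With a pseudocount of 1 the difference at t0 was 0.78 and the rise with culture 0.69 in atria and 0.81 in SAN. All of these lay under the fold limit.

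Of the ligands of the common gamma chain, IL15 and IL9 were lower with CN03 in both tissues and IL2 passed in SAN only. The receptors moved both ways. IL15, which keeps natural killer and memory T cells alive, was at -3.79, -3.36, -2.54 and -2.19 with CN03, 0.95, 0.17, 1.10 and 1.11 with vehicle, and 0.07, -0.13, -0.62 and 0.09 at t0 in SAN. In atria IL15 was at -3.10, -3.81, -4.04 and -2.28 with CN03, -0.30, 0.51, 1.07 and 0.96 with vehicle, and -0.28, -0.81, -1.06 and -0.88 at t0. CN03 pools lay more than 1 log2 unit below all others in each tissue. Against vehicle IL15 had a log2FC with CN03 of -3.80 ± 0.41 (SE, adjusted p = 1.9e-08) in SAN and -3.86 ± 0.41 (SE, adjusted p = 1.2e-08) in atria, and culture had raised it in atria by 1.32 ± 0.41 (SE, adjusted p = 0.0083). The size of the fall depends on the low CN03 values. With a pseudocount of 1 it was -1.30 in SAN and -1.18 in atria, still past the fold limit.

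IL9, a growth factor of T cells and mast cells in mammals, was lower in vehicle pools than at t0 and lower again with CN03. In SAN IL9 was at -5.87, -3.08, -3.65 and -2.41 with CN03, -0.60, 0.16, -0.05 and -0.52 with vehicle, and 0.62, 1.53, 1.48 and 1.64 at t0. In atria IL9 was at -5.87, -3.50, -4.40 and -4.66 with CN03, -0.76, -0.36, -0.40 and -1.77 with vehicle, and 1.38, 2.0, 1.55 and 1.77 at t0. CN03 pool 1 of each tissue was on the floor of the table, so that its fold depends on that floor. Vehicle pools lay below those at t0, at a log2FC of -1.57 ± 0.55 (SE, adjusted p = 0.021) in SAN and -2.50 ± 0.55 (SE, adjusted p = 0.00047) in atria, and CN03 pools below vehicle, at -3.50 ± 0.55 (SE, adjusted p = 5.5e-06) in SAN and -3.78 ± 0.55 (SE, adjusted p = 1.7e-06) in atria. With a pseudocount of 1 the log2FC with CN03 was -0.75 in SAN and -0.60 in atria and that with culture in SAN -0.93, all under the fold limit. The culture step in SAN missed the threshold without pool 4 at t0 (-1.46) or vehicle pool 1 or 4 (-1.45 and -1.48). IL2, the T cell growth factor, had means between -1.02 and 0.32. It was lower with CN03 in SAN, at a log2FC of -1.01 ± 0.33 (SE, adjusted p = 0.0089), a call lost after quantile normalization (-0.15), after median centring (-0.96), and without vehicle pool 3 (-0.67) or CN03 pool 1 or 4 (-0.95 and -0.97).

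IL2RG, the common gamma chain itself, was at 0.57, 0.06, -0.04 and 0.20 with CN03, 2.52, 2.86, 2.67 and 2.21 with vehicle, and 1.45, 1.52, 1.23 and 1.23 at t0 in SAN. In atria IL2RG was at -1.03, -0.55, -0.58 and -0.49 with CN03, 0.89, 1.87, 2.01 and 1.19 with vehicle, and 0.46, 0.51, 0.30 and 0.08 at t0. It was highest with vehicle and lowest with CN03 in both tissues, with no pool shared between those groups. Culture raised IL2RG by 1.21 ± 0.23 (SE, adjusted p = 0.00012) in SAN and 1.15 ± 0.23 (SE, adjusted p = 0.00014) in atria (0.98 in atria without vehicle pool 3 and 0.97 after quantile normalization), and the log2FC with CN03 was -2.36 ± 0.23 (SE, adjusted p = 2.8e-09) in SAN and -2.15 ± 0.23 (SE, adjusted p = 1.1e-08) in atria. IL2RB, the beta chain of the IL2 and IL15 receptors, was at 0.07, 0.49, -0.33 and 0.01 with CN03, 0.37, 0.28, 0.59 and 0.44 with vehicle, and -1.94, -1.02, -2.70 and -1.98 at t0 in SAN. In atria IL2RB was at -0.13, -1.11, -1.34 and -0.08 with CN03, 0.67, 0.45, 0.56 and 1.30 with vehicle, and -1.89, -1.91, -2.08 and -3.0 at t0. Culture raised it in every pool, by 2.33 ± 0.36 (SE, adjusted p = 9.9e-06) in SAN and 2.97 ± 0.36 (SE, adjusted p = 2.0e-07) in atria. With CN03 it was lower in atria, at a log2FC of -1.41 ± 0.36 (SE, adjusted p = 0.0012), a call lost after quantile normalization, and its SAN value of -0.36 turned to 0.44 there. IL2RA, the alpha chain, was lower with CN03, at a log2FC of -1.22 in SAN and -1.14 in atria, but at -0.48 in SAN and -0.74 in atria after quantile normalization, where neither passed, and at -0.95 in atria without vehicle pool 3. IL7R, with means between 0.49 and 2.28, was lower with CN03 in SAN, at -1.07 ± 0.45 (SE, adjusted p = 0.037), and lost its call after quantile normalization (-0.51) and without CN03 pool 2 or 4 (-0.62 and -0.99) or vehicle pool 1, 3 or 4 (-1.04, -0.84 and -1.08). In atria it was at -1.0, just under the fold limit, and culture raised it in SAN by 1.60 ± 0.45 (SE, adjusted p = 0.0046).

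IL4R and IL13RA1 form the receptor shared by IL4 and IL13 and both rose with CN03. IL4R was at 4.75, 4.76, 4.89 and 4.95 with CN03 and 3.92, 3.97, 3.75 and 3.65 with vehicle in SAN and at 4.82, 4.92, 4.93 and 4.75 with CN03 and 3.66, 3.99, 3.82 and 3.61 with vehicle in atria, higher with CN03 by 1.01 ± 0.11 (SE, adjusted p = 1.8e-08) in SAN and 1.09 ± 0.11 (SE, adjusted p = 4.7e-09) in atria. The SAN value lay at the fold limit, with 0.95 to 1.00 without CN03 pool 3 or 4 or vehicle pool 3 or 4. IL13RA1 was at 5.26, 5.36, 5.18 and 5.52 with CN03 and 4.36, 4.38, 4.23 and 4.03 with vehicle in SAN and at 6.75, 6.31, 6.25 and 6.67 with CN03 and 5.35, 5.28, 5.35 and 5.54 with vehicle in atria, higher by 1.08 ± 0.17 (SE, adjusted p = 4.1e-06) in SAN and 1.11 ± 0.17 (SE, adjusted p = 2.5e-06) in atria, the atrial value being 0.91 after quantile normalization. CN03 pools of both genes lay above all vehicle pools in each tissue. The decoy IL13RA2 was at 0.04 in SAN and 0.78 in atria, under the fold limit, though the difference between tissues passed (-0.73 ± 0.13 SE, adjusted p = 0.00024). IL9R had means between 1.75 and 2.39 and passed in no comparison.

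Of the IL10 family receptors, IL20RA, a chain of the receptors for IL19, IL20 and IL24, was lower with CN03 in SAN. In SAN IL20RA was at 1.05, 0.50, 1.60 and 1.81 with CN03, 4.17, 5.09, 4.93 and 4.78 with vehicle, and 3.90, 4.28, 4.79 and 4.45 at t0. In atria IL20RA was at 1.29, 0.38, 1.29 and 1.44 with CN03, 1.51, 1.88, 1.65 and 1.65 with vehicle, and 2.30, 3.02, 2.96 and 2.03 at t0. The SAN pools with vehicle and at t0 stood above every atrial pool, and with CN03 the tissues shared a range. Against vehicle IL20RA had a log2FC with CN03 of -3.50 ± 0.28 (SE, adjusted p = 1.6e-10) in SAN and -0.57 ± 0.28 in atria (adjusted p = 0.075), a difference of -2.93 ± 0.40 (SE, adjusted p = 1.3e-05). SAN against atria it was higher by 1.78 at t0 and 3.07 with vehicle, and at 0.14 with CN03, where the test did not pass.

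IL10RB, the chain shared by the IL10, IL22 and interferon lambda receptors, stayed below the fold limit in each step, at 0.35 in SAN and 0.74 in atria with CN03 and at 0.91 in SAN and 0.37 in atria with culture. Both responses differed between tissues (-0.39 ± 0.14 SE, adjusted p = 0.047, with CN03 and 0.54 ± 0.14 SE, adjusted p = 0.015, with culture), the first not after quantile normalization (-0.33). IL10RA had means between -0.27 and 1.24 and passed only in SAN against atria with vehicle (1.09 ± 0.27 SE, adjusted p = 0.0025), a call lost after quantile normalization. IL22RA1 had means between 2.37 and 3.04 and passed in no comparison.

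In the IL17 family, IL17REL, an IL17 receptor-like gene, was at or near the floor at t0 and above it after culture. In SAN IL17REL was at 0.97, -1.75, 0.58 and 1.01 with CN03, 0.62, 0.07, 0.67 and 1.31 with vehicle, and -4.90, -4.70, -3.72 and -4.99 at t0. In atria IL17REL was at 0.99, 2.01, 2.51 and 1.33 with CN03 and -0.06, -0.61, -0.48 and 0.57 with vehicle, and at -5.87, the floor, in all 4 pools at t0. Cultured and fresh pools did not overlap in either tissue, by 5.24 ± 0.50 (SE, adjusted p = 9.4e-09) in SAN, and no fold is given for the atria because every pool at t0 was on the floor. The SAN pools at t0 lay near it, and with a pseudocount of 1 the SAN rise was 1.32. The SE takes in that atrial group, which had no spread. With CN03 IL17REL was higher in atria by 1.86 ± 0.50 (SE, adjusted p = 0.0020), and at -0.47 in SAN, where 1 pool at -1.75 stood apart and the value without it was 0.18. The difference between tissues passed (-2.32 ± 0.71 SE, adjusted p = 0.017) but not after quantile normalization. IL17RA, the shared IL17 receptor, had means between 5.40 and 6.43, IL17RC between 6.13 and 6.58 and IL17B between -1.04 and 0.27, and none of these passed.

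Of the remaining ligands, IL16, released from a larger intracellular protein and known to attract CD4+ lymphocytes, was at 0.23, 0.17, 0.87 and 0.73 with CN03, 0.39, -0.92, -0.45 and -1.39 with vehicle, and -1.10, -1.66, -0.89 and -2.12 at t0 in SAN. In atria IL16 was at 0.73, 0.56, 0.93 and 0.80 with CN03, -2.19, -1.21, -1.99 and -1.33 with vehicle, and -1.69, -3.73, -1.81 and -5.21 at t0. It was higher with CN03 in atria by 2.44 ± 0.55 (SE, adjusted p = 0.00040) with no overlap, and in SAN was at 1.09 ± 0.55, where the pools overlapped and the test did not pass (adjusted p = 0.081). Without vehicle pool 1 the SAN value was 1.42 and passed, and it passed after quantile normalization at 2.27. Its rise with culture in atria (1.43) was lost after quantile normalization (0.38) and without pool 2 or 4 at t0 (1.22 and 0.73) or vehicle pool 2 or 4 (1.27 and 1.31). IL34, the second ligand of the macrophage receptor CSF1R, was at 2.32, 1.40, 0.90 and 2.47 with CN03, 1.08, 0.90, 0.72 and 1.80 with vehicle, and 0.34, 0.21, 0.29 and 0.29 at t0 in SAN. In atria IL34 was at 0.99, 1.70, 1.37 and 2.13 with CN03, 1.42, 1.55, 1.73 and 2.10 with vehicle, and -0.44, -0.40, -1.56 and -0.91 at t0. Culture raised it by 2.53 ± 0.33 (SE, adjusted p = 5.7e-07) in atria and by 0.85 in SAN, a difference of -1.68 ± 0.46 (SE, adjusted p = 0.017). Its log2FC with CN03 was 0.64 in SAN and -0.15 in atria, and neither passed, but in SAN it was at 1.38 and passed after quantile normalization.

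**Figure D5:**
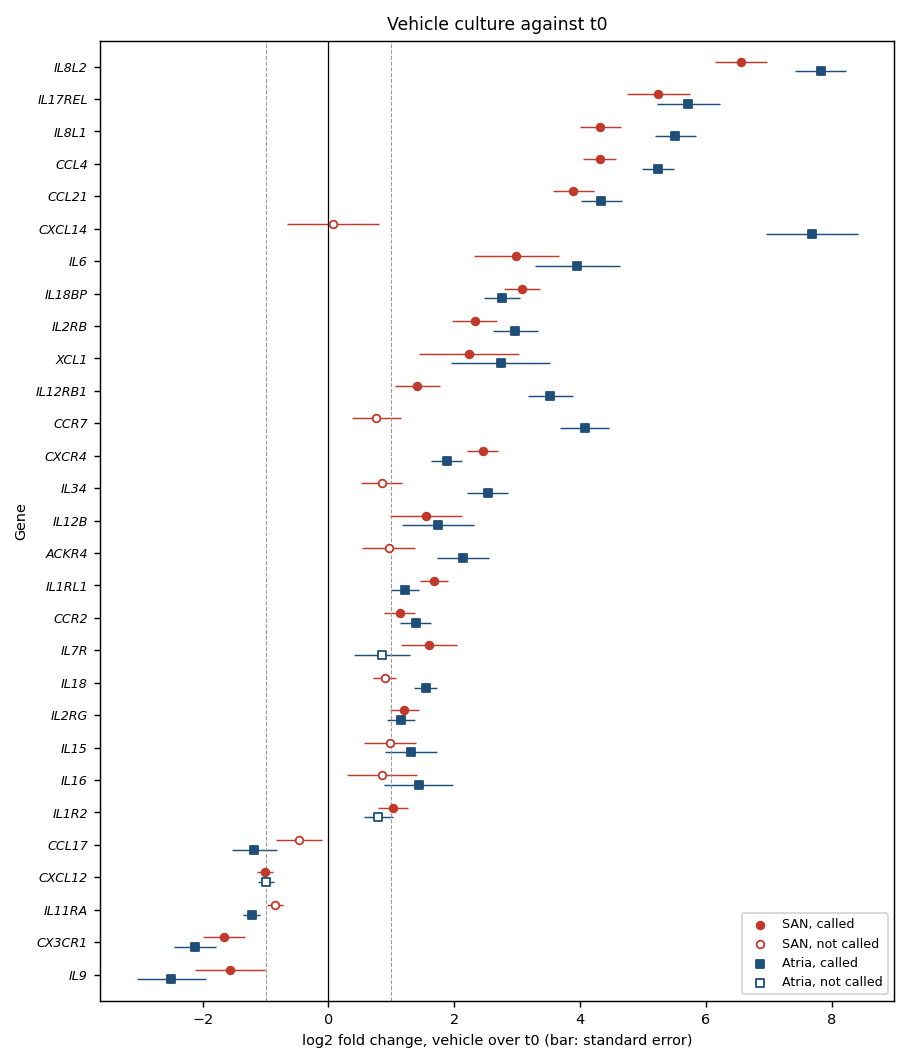
The log2 fold change of vehicle culture over t0 for 29 of the genes that passed in at least 1 tissue, with circles for SAN, squares for atria, filled where the gene passed, and bars for the standard error. IL8L2 tops the plot at 6.56 in SAN and 7.83 in atria, and IL9, CX3CR1, CCL17, CXCL12 and IL11RA passed as lower in 1 or both tissues; for IL17REL in atria all pools at t0 were on the floor, so its point there is set by that floor.

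The comparisons of CN03 and of t0 with vehicle share the vehicle pools of a tissue, so that a high vehicle value moves both. Set against t0 directly, CN03-treated tissue differed in 37 genes in SAN (21 higher and 16 lower, with 32.3% of all genes passing, 13.1% higher and 19.2% lower) and 37 in atria (24 higher and 13 lower, with 34.1% of all genes passing, 16.3% higher and 17.9% lower). Against t0, IL6 was at a log2FC of 6.62 in SAN and 8.85 in atria and IL8L1 at 5.41 in SAN and 9.65 in atria, whereas CCL21 was at 1.0 in SAN and -0.99 in atria. The mean in atria at t0 was -3.48 for IL6 and -4.54 for IL8L1. Each had 1 pool there on the floor, so that these atrial folds depend on it. The comparisons of CN03 with t0 were not run under the alternatives.

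The response to CN03 differed between SAN and atria for 16 of the 63 genes at an adjusted p under 0.05, 25.4% where 27.1% of all genes differed (11.7% higher and 15.4% lower). Of these, 4 had the higher log2FC in SAN (CXCL14, CCL21, IL18R1 and CX3CL1) and 12 the lower, a split that became 7 and 7 after quantile normalization. The response to culture differed for 7 genes (11.1%, where 13.0% of all genes differed, 6.89% higher and 6.09% lower). It was higher in SAN for IL20RA, IL10RB and IL13RA2 and lower for CXCL14, CCR7, IL12RB1 and IL34, 3 and 4 genes, or 4 and 2 with a pseudocount of 1, where the difference of IL12RB1 turned to 0.12 and did not pass.

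Between the tissues themselves, 20 of the 63 genes differed at t0, 18 higher and 2 lower in SAN (31.7%, where 9.72% of all genes passed, 6.86% higher and 2.87% lower). Without the fold limit 34 passed, where 35.9% of all genes did. The largest were CXCL14 (5.93), IL12RB1 (3.79), IL1RAPL1 (2.88), IL8L1 (2.46) and IL20RA (1.78), and the lower ones were IL1RAPL2 and CCL17. With a pseudocount of 1, 7 genes passed at t0, 6 higher and 1 lower (11.1%, where 6.33% of all genes passed). IL12RB1 (0.78) and IL8L1 (0.24) then fell under the fold limit. Receptors known from leukocytes were among those higher in SAN, with CCR2 at 1.41, CX3CR1 at 1.07 and IL2RG at 1.02, and the calls of these 3 were lost after quantile normalization, which left 7 higher and 3 lower (15.9%, where 8.84% of all genes passed). The 15 leukocyte markers were higher in SAN for 9 of 15 in the same comparison, and their part was not tested. IL17REL (on the floor in atria), IL34, IL16, IL2, CCL4, CCL26, CCR7, IL1R1 and IL8L2 were also higher, and of these IL17REL, IL34, IL16, IL2, CCL4 and IL8L2 also lost their calls after quantile normalization, as did IL8L1 (0.91). Leaving out single pools also ended calls at t0: CCL17 without atrial pool 4 or SAN pool 1 or 2 (-0.87, -1.0 and -1.03), CCL4 without atrial pool 4 or SAN pool 1 (0.83 and 0.82), CX3CR1 without atrial pool 4 or SAN pool 2 (0.87 and 0.96), IL2RG without atrial pool 4 or SAN pool 1 or 2 (0.93, 0.99 and 0.96), and IL34 without atrial pool 3 (0.86). IL16 lost its call without atrial pool 2 or 4 or SAN pool 1 or 3 (between 0.97 and 1.56), IL8L2 without atrial pool 2 or 4 or SAN pool 1 or 2 (between 0.67 and 1.01), and IL17REL without any 1 of 7 of the 8 pools, all but SAN pool 4.

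With vehicle, 16 genes differed between tissues, 13 higher and 3 lower in SAN (25.4%, where 11.0% of all genes passed, 7.66% higher and 3.36% lower), or 7 and 7 after quantile normalization (where 10.9% of all genes passed) and 3 and 4 with a pseudocount of 1 (where 7.69% did). IL20RA (3.07 ± 0.28 SE, adjusted p = 9.3e-09), CXCR4 (1.32 ± 0.25 SE, adjusted p = 0.00014) and CXCR7 (1.08 ± 0.13 SE, adjusted p = 4.6e-07) were among those higher in SAN, and CCR7 (-1.69), IL13RA1 (-1.13) and IL1RAPL2 (-1.67) were lower. Without the fold limit 27 passed, where 42.6% of all genes did. Single pools ended the calls of ACKR2 (0.91 without atrial pool 1), CCR2 (0.97 without SAN pool 3), IL10RA (0.87 without atrial pool 1 and 0.96 without SAN pool 1), IL12RB2 (0.90 without atrial pool 4) and IL2RG (0.87 and 0.97 without atrial pool 1 or 4 and 0.97 without SAN pool 2). With CN03, 10 genes differed, 4 higher and 6 lower in SAN (15.9%, where 7.91% of all genes passed, 3.84% higher and 4.07% lower), or 1 and 4 with a pseudocount of 1 (where 4.72% of all genes passed), and 18 passed without the fold limit, where 38.0% of all genes did. IL1RAPL1 (3.03), CCL21 (1.95), IL18R1 (1.54) and IL12RB2 (1.10) were higher, and IL8L1 (-1.78), CCR7 (-1.59), IL17REL (-1.51), CCR9 (-1.30), IL13RA1 (-1.17) and IL12RB1 (-1.10) were lower. The calls of IL12RB1 (without CN03 pool 1 or 4 of the atria or pool 1 of the SAN, -0.93, -0.91 and -0.81), IL17REL (without CN03 pool 3 of the atria or pool 2 of the SAN, -1.24 and -0.86) and IL12RB2 (without CN03 pool 3 of the SAN, 0.91) each depended on single pools.

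Genes that carry the signals of these ligands were taken from 4 lists. On the NF-kappaB list, which holds the pathway used by IL1 family receptors, 32 genes were measured. With CN03 6 of them were higher and 4 lower in SAN and 8 higher and 4 lower in atria (31.2% in SAN and 37.5% in atria, where 27.4% and 29.4% of all genes passed), with a list median of 0.11 in SAN and 0.28 in atria. NFKB1 was higher by 1.63 ± 0.08 in SAN and 1.63 ± 0.08 in atria and the adaptor MYD88 by 1.35 ± 0.14 in SAN and 1.56 ± 0.14 in atria, while TLR4 was lower in SAN, at -2.17 ± 0.33, and its partner LY96 was lower in both (-2.22 in SAN and -1.38 in atria). Culture raised 5 and lowered 1 in SAN and raised 7 and lowered 1 in atria (18.8% in SAN and 25% in atria, where 13.6% and 19.2% of all genes passed), with MAP3K8 at 3.16 in SAN and 4.40 in atria.

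On the JAK-STAT list, 5 of 32 measured genes were higher and 2 lower with CN03 in SAN and 7 higher and 2 lower in atria (21.9% in SAN and 28.1% in atria, both below the 27.4% and 29.4% of all genes), with list medians of 0.13 in SAN and 0.09 in atria. LIF, a cytokine that shares gp130 with IL6, had a log2FC of 4.81 ± 0.39 in SAN and 5.18 ± 0.39 in atria, and culture had raised it by 3.53 in SAN and 5.16 in atria. The feedback inhibitors SOCS3 (1.55 in SAN and 1.49 in atria) and CISH (2.02 in SAN and 1.83 in atria) and the receptor chain OSMR (2.73 in SAN and 2.48 in atria) were higher with CN03, and CNTFR (-2.34 in SAN and -2.71 in atria) and the leukocyte phosphatase PTPN6 (-2.0 in SAN and -1.59 in atria) were lower. Culture raised 7 in SAN and 8 in atria and lowered none (21.9% in SAN and 25% in atria, where 13.6% and 19.2% of all genes passed). STAT3 was among them, by 1.12 in SAN and 1.23 in atria.

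Among 23 measured genes of other leukocyte cytokines, 5 were higher and 6 lower with CN03 in SAN and 6 higher and 2 lower in atria (47.8% in SAN and 34.8% in atria, where 27.4% and 29.4% of all genes passed), with list medians of -0.19 in SAN and -0.07 in atria. The macrophage growth factor CSF1 was higher by 1.33 in SAN and 1.79 in atria, and its receptor CSF1R was lower, at -1.84 in SAN and -1.25 in atria. TNFRSF11B, the decoy osteoprotegerin, was higher by 2.91 in SAN and 3.08 in atria, and CSF3, the granulocyte growth factor, by 3.05 in atria. Of 18 measured genes of chemokine receptor signalling, 4 were higher and 4 lower in SAN and 6 higher and 3 lower in atria (44.4% in SAN and 50% in atria, where 27.4% and 29.4% of all genes passed). The list medians were 0.09 in SAN and 0.14 in atria. RGS2 and RGS3, which shorten G protein signals, were higher (1.43 and 1.39 in SAN, 2.01 and 2.20 in atria), and the leukocyte genes RGS18 (-2.38 in SAN and -2.40 in atria) and DOCK2 (-2.02 in SAN and -1.49 in atria) were lower, as was DPP4, a protease that trims chemokines (-2.55 in SAN and -2.45 in atria). RGS16 went the other way from RGS2 and RGS3. Its mean was 0.20 with CN03 and 2.05 with vehicle in SAN, and -0.24 and 0.72 in atria. The RGS1 mean was 3.40 with CN03 and 3.53 with vehicle in SAN, and 4.97 and 4.84 in atria.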

How the data were processed

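RNA of 24 pools of chick SAN and atrial tissue was sequenced as paired-end reads after ribosomal RNA depletion. The study's methods name FastQC for read quality, Kallisto for mapping, edgeR for filtering genes and limma for testing, and per the submitters' processing notes the build was GRCg7b; the versions and the normalization between libraries are not given in the sources used here. What the authors deposited is a table of normalized log2 values, 1 for each gene symbol and library, with library medians between 4.63 and 4.72. A row without a gene symbol held between 6.58% and 17.9% of the linear sum of a library and was left out of every test.

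The 63 genes were taken from the 12422 symbols by the rule given above. They include 1 gene that enters the counts but is not reported here on its own. Genes and lists were chosen with earlier results of these data known. A mean per group was fitted to all 24 libraries with limma 3.58.1 in R 4.3.3, with a mean-variance trend, and p-values were adjusted over all symbols by the Benjamini-Hochberg method. A call needed an adjusted p under 0.05 together with a log2FC beyond 1 or -1, while differences of responses needed the adjusted p alone. The fit was tested on simulated data. Values in every pool are given for the 25 called genes with the largest log2FC in the comparisons with vehicle, with t0 or between fresh tissues, and for some others beside them that were chosen after their values were seen. Locations are from the NCBI gene table of GRCg7b, in which 61 of the 63 symbols were found. Alternatives were a pseudocount of 1, quantile normalization, median centring, a filter on mean log2 values of 0 or less, no variance trend, no fold limit, only the groups compared, the replicate number as a block and leaving out each library. The replicate numbers are not stated to pair the pools across groups. Python 3.11.15 with matplotlib 3.10.9 drew the figures.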

Additional observations from a re-analysis of the deposited data

Results flagged for a closer look

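Of 150 groups of 4 pools checked for 1 pool far from the other 3, 11 held such a pool by Dixon's test, where chance gives about 1 in 20. The low pools were CCL26 in pool 1 of CN03-treated SAN at -4.65 on the log2 scale, IL17REL in pool 2 of CN03-treated SAN at -1.75, CCL17 and IL20RA in pool 2 of CN03-treated atria at -2.51 and 0.38, CXCR7 in pool 1 of vehicle-treated SAN at 8.16, IL18BP in pool 3 of vehicle-treated SAN at 1.04, IL1RAPL1 in pool 1 of vehicle-treated atria at -3.60, CCL21 in pool 2 of fresh SAN at -1.80, IL9 in pool 1 of fresh SAN at 0.62 and IL2RB in pool 4 of fresh atria at -3.0. The one high pool was CCR7 in pool 1 of CN03-treated atria at 3.33.

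The response to CN03, SAN minus atria on the log2 scale, differed by the interaction test in limma for 16 of the 63 genes, where 27.1% of all genes differed. It was higher in SAN for CXCL14 (3.19), CCL21 (2.43), IL18R1 (1.23) and CX3CL1 (0.60). Among those with a lower response in SAN were IL8L1 (-3.04), IL20RA (-2.93), IL12RB1 (-2.77), IL17REL (-2.32), CX3CR1 (-1.44), IL1R1 (-1.37), IL6R (-1.07), CCR9 (-0.94), IL13RA2 (-0.73), IL1RL2 (-0.48) and IL10RB (-0.39). CCR9, CX3CR1, IL10RB, IL17REL and IL1RL2 lost this call after quantile normalization. Leaving out single libraries ended the calls of IL10RB (10 libraries, between -0.40 and -0.33), IL1RL2 (6 libraries, between -0.47 and -0.42), CX3CR1 (4 libraries, between -1.33 and -1.11) and CXCL14 (2 libraries, 2.53 and 2.76).

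The response to vehicle culture differed for 7 of the 63 genes, where 13.0% of all genes differed. It was lower in SAN for CXCL14 (-7.62), CCR7 (-3.31), IL12RB1 (-2.12) and IL34 (-1.68), and higher for IL20RA (1.29), IL13RA2 (0.59) and IL10RB (0.54). IL20RA lost this call without any 1 of 10 of the 16 libraries, with values between 1.14 and 1.28. IL12RB1 lost it after quantile normalization (-1.06) and turned to 0.12 with a pseudocount of 1, and IL34 lost it with a pseudocount of 1 (-0.89).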

How the results depend on the processing

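For each comparison except CN03 with t0, the number of the 63 genes called was set against the alternatives. With a pseudocount of 1, the counts were 17 for CN03 in SAN, 11 for culture in SAN, 17 for culture in atria, and 7 at t0, 7 with vehicle and 5 with CN03 for SAN against atria. In that order these were 27%, 17.5%, 27%, 11.1%, 11.1% and 7.94% of the 63 genes. Of all genes 21.8%, 9.89%, 13.9%, 6.33%, 7.69% and 4.72% passed. Quantile normalization gave 10 at t0, where 8.84% of all genes passed. A filter on the mean gave 13 for culture in SAN, 17 for culture in atria and 13 at t0, with 49 of the 63 genes tested. With that filter 12.5%, 17.7% and 8.34% of all genes passed, in the same order. Without a fold limit the counts were 33 for culture in SAN, 34 at t0, 27 with vehicle and 18 with CN03 for SAN against atria. All other counts stayed within 1.5 times.

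Leaving out 1 library gave 26 to 30 genes for CN03 in SAN, 29 to 33 for CN03 in atria, 17 to 21 for culture in SAN, 26 to 28 for culture in atria, 14 to 20 at t0, 13 to 17 with vehicle and 9 to 10 with CN03 for SAN against atria, 12 to 17 for the difference in CN03 response and 6 to 9 for the difference in culture response. Over all genes the shares were 26.9% to 27.7% for CN03 in SAN and 28.5% to 30.3% in atria. For culture they were 12.8% to 13.9% in SAN and 18.4% to 19.7% in atria. For SAN against atria they were 9.29% to 10.1% at t0, 10.3% to 11.5% with vehicle and 7.01% to 8.61% with CN03. For the differences in response they were 24.4% to 26.5% with CN03 and 10.6% to 12.5% with culture.

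Values that changed sign were not past the threshold in most cases. After quantile normalization the log2FC with CN03 in SAN was 0.34 for IL17REL, 0.18 for IL18BP, 0.72 for IL1RAPL1 and 0.44 for IL2RB, that of IL34 in atria was 0.16, and IL17REL at t0 was -0.064 in SAN against atria. Leaving out 1 library gave between -0.74 and 0.18 for IL17REL with CN03 in SAN (positive without CN03 replicate 2), between -0.10 and 0.29 for CXCR4 in atria (-0.05 without CN03 replicate 3 and -0.10 without vehicle replicate 1) and between -0.35 and 0.031 for IL34 in atria (positive without CN03 replicate 1). With a pseudocount of 1 the difference in culture response of IL12RB1 was 0.12. Of these only IL17REL at t0 and IL12RB1 had been called, and the cause was not tested. Over 193 results for single genes, 139 kept their direction and their side of the adjusted p threshold under every alternative run.

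Replicate numbers 1 to 4 recur in each group. Deviations of same-numbered pools from their group means correlated with a mean r of 0.165 over 60 pairs (range -0.17 to 0.55). A pool correlated best with its own number in 34 of 60 cases, where each had 4 pools to match and chance gives about 1 in 4. Every same-numbered pair was above 0.1 in 2 of the 15 pairings of groups, CN03 with vehicle in atria and SAN with atria at t0, and there the block changed no call. With the number as a block no call was lost and the counts were 30 for CN03 in SAN, 31 for CN03 in atria, 20 and 27 for culture, 20, 16 and 10 between tissues, 18 for the difference in CN03 response (CCL4 and IL6ST added) and 8 for that in culture response (IL13RA1 added). Over all genes the block moved the share called from 27.1% to 32.1% for the difference in CN03 response and from 13.0% to 16.6% for that in culture response.

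The depth is unknown, which limits every low gene, and the reads behind a value near the floor cannot be counted.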
